A study of Mus musculus with 6 samples.

Results

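Gadd45a and 9 other genes known as transcriptional targets of p53 were followed in mouse Th17 cells that carried ADAR2 WT, ADAR2 E396A or an empty retroviral vector. The members were taken by gene name from the 55450 genes of the deposited tables, and all 10 (Gadd45a, Cdkn1a, Mdm2, Bax, Bbc3, Pmaip1, Ccng1, Phlda3, Aen and Trp53inp1) were found there and had enough reads to be tested. The set was chosen by a measured value: Gadd45a had passed a test of ADAR2 WT against empty vector in these same libraries, and the other 9 were added as known p53 targets. That comparison is therefore no independent test of these genes: the values, intervals and counts given for it describe the libraries by which the set was chosen, and nothing is concluded from a gene passing there.

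T cells from wild-type mice aged 8 to 12 weeks were activated with anti-CD3ε (0.25 µg/mL) and anti-CD28 (1 µg/mL) and cultured with TGF-β and IL-6 (20 ng/mL), the cytokines that drive the Th17 state. At 24 h they were transduced with an MSCV (murine stem cell virus) retrovirus, and at 72 h total RNA was depleted of ribosomal RNA and sequenced. TGF-β was 0.1 ng/mL before and 0.3 ng/mL after transduction. The 3 groups, ADAR2 WT, ADAR2 E396A (the enzymatically dead form) and empty vector, had 2 libraries each, from cells of 2 donor mice here called donor A and donor B. All groups thus shared the activation, the cytokines and the retroviral transduction, and no untransduced cells were analysed here. The constructs were expressed from a retroviral vector, so the ADAR2 level is that of a transduced culture and not of the endogenous locus alone.

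p53 is a transcription factor that becomes stable when DNA is damaged or a cell is otherwise stressed, and it then switches on genes that halt the cell cycle, repair DNA, kill the cell or shut p53 itself down. Gadd45a encodes a small protein of the growth arrest and DNA damage family, which binds PCNA, CDK1 and the kinase MAP3K4. It is known as a p53 target but is also switched on without p53 by stress factors such as ATF4. Activated T cells divide fast, and p53 and its targets are active in them as a brake on proliferation. ADAR2, encoded by Adarb1, edits double-stranded RNA by turning adenosine into inosine.

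The sequences upstream of Gadd45a, Cdkn1a and Mdm2 are shown because the set was chosen by Gadd45a. Cdkn1a and Mdm2 are the best known targets that share a p53 decamer with it. Each sequence is the 250 bases before a RefSeq start (GRCm38.p6), on the strand of the gene. A p53 decamer, CCAAT box or octamer (ATTTGCAT) is in capitals. A p53 decamer is a single unit of the p53 motif. Full sites of paired decamers were not searched for, so small letters beside a decamer may belong to a full site. The regions are chr6:67037408-67037657 (minus strand) for Gadd45a, chr17:29090729-29090978 (plus strand) for Cdkn1a and chr10:117710759-117711008 (minus strand) for Mdm2.
Gadd45a: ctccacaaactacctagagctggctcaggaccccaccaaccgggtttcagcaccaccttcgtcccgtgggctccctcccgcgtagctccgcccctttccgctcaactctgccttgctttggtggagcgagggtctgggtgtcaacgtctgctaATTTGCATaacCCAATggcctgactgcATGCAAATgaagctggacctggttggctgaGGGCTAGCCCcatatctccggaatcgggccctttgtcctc
Cdkn1a: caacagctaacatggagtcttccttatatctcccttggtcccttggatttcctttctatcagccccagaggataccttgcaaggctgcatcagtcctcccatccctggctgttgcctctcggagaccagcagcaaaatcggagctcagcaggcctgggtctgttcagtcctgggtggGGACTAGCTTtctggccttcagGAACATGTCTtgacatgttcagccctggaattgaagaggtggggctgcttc
Mdm2: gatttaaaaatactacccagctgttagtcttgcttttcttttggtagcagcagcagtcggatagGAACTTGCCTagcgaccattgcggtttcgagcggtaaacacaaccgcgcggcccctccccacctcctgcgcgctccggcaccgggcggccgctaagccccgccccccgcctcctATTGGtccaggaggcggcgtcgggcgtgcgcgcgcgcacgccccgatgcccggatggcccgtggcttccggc

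The Gadd45a sequence held a p53 decamer starting at base -40, a CCAAT box at -86, and octamers at -97 and, on the other strand, -70, counted back from the RefSeq start. GENCODE vM21 places the start of Gadd45a further upstream, so that this decamer lies within the GENCODE gene. In the region shown, Cdkn1a held p53 decamers at -73 and -51. Another RefSeq start region of Cdkn1a, chr17:29093519-29093768, is not shown and held no p53 decamer. Mdm2 held a p53 decamer at -186 with a CCAAT box on the other strand at -72. Of the 8 members with a RefSeq upstream sequence, 6 (Gadd45a, Cdkn1a, Mdm2, Bax, Ccng1 and Aen) held a p53 decamer in at least 1 annotated start region, against 7.13% of all 32851 such regions. Both strands were searched, and a gene with several start regions had more chances to hold a motif. A CCAAT box was present in 5 of the 8 members, against 33.8% of regions. The octamer was present only in Gadd45a among these 8, against 1.6% of regions. A GC box (GGGCGG) was present in 7 of the 8, against 32.7%. None of the 8 held TATAAA, TGACGTCA or TGATGCAA, the letters searched for a TATA box, a cyclic AMP response element and a C/EBP-ATF element, which 12.4%, 1.55% and 0.791% of regions held. Such matches describe letters and not bound sites.

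The libraries held 16496328 to 21897166 reads in genes. Adarb1, the transduced gene, had 18422.5 and 18998.7 normalized counts (reads divided by a library's size factor) in ADAR2 WT cells of donors A and B, 15644.4 and 14919.9 in ADAR2 E396A cells and 3672 and 3332.5 in empty-vector cells. Both constructs were thus above empty vector in both donors, and the Adarb1 level of ADAR2 WT was 0.29 ± 0.07 (SE) higher on the log2 scale than that of ADAR2 E396A (limma adjusted p = 0.161). All 5 T cell markers and all 6 Th17 markers were detected. Among markers of other cells, Ms4a1 (B cells) and Ncr1 (NK cells) had 0 reads in all libraries. Others were detected in each library. On the B cell list these were Cd79a (7 to 40 reads) and Cd79b (16 to 25 reads). On the CD8 T and NK cell list they were Cd8b1 (115 to 163 reads), Cd8a (9 to 67 reads) and Klrd1 (19 to 166 reads). The myeloid list had Cd68 (34 to 70 reads) and Csf1r (1 to 7 reads). The erythroid list had Alas2 (7 to 14 reads), and the stromal list had Col1a1 (1 to 9 reads).

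Per unit of transcript length the members spanned a wide range of levels. In empty-vector cells Ccng1, which encodes cyclin G1, was highest at 661 ± 9.19 TPM (a length-corrected share of the transcripts in a library; SD, n = 2), above 98.8% of tested genes. Cdkn1a, which encodes the cell cycle inhibitor p21, was at 376 ± 29.9 TPM, and Mdm2, the ubiquitin ligase that removes p53, at 128 ± 19.1 TPM. Pmaip1 (98.4 ± 1.86 TPM), Phlda3 (88 ± 4.82 TPM), Bax (86.6 ± 0.253 TPM) and Trp53inp1 (75.9 ± 15.8 TPM) followed. Each of these 4 overlapped its neighbour in that order over the 6 libraries, so their order is not fixed by these data. Aen was at 40.1 ± 3.87 TPM and Bbc3 at 25.6 ± 0.525 TPM. Gadd45a was the lowest member at 13.8 ± 2.58 TPM, above 49.4% of tested genes, and over the 6 libraries its range of 12 to 31.1 TPM overlapped that of Bbc3, 21.7 to 27.6 TPM. In empty-vector cells the other 9 members thus ranged from Bbc3, above 62.9% of tested genes, up to Ccng1, with Gadd45a in the middle of the tested genes. These levels give no measure of p53 activity.

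Gadd45a had 291.3 and 291.9 normalized counts in ADAR2 WT cells of donors A and B, 188.2 and 142.9 in ADAR2 E396A cells, and 118.7 and 147.1 in empty-vector cells. These values rest on 300 and 253 reads in ADAR2 WT cells, 191 and 164 in ADAR2 E396A cells, and 114 and 151 in empty-vector cells. The ADAR2 WT libraries stood above all 4 others, while the ADAR2 E396A and empty-vector libraries overlapped. The group means were 291.6 ± 0.447 normalized counts for ADAR2 WT, 165.6 ± 32 for ADAR2 E396A and 132.9 ± 20 for empty vector (SD, n = 2 each). An SD from 2 libraries is poorly determined, and the small one of ADAR2 WT does not measure how closely the level would repeat. The gene (ENSMUSG00000036390.8) spans chr6:67035096-67037457 of mm10 on the minus strand and overlaps E230016M11Rik on the other strand, which had 34 reads over all 6 libraries.

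**Figure D1:**
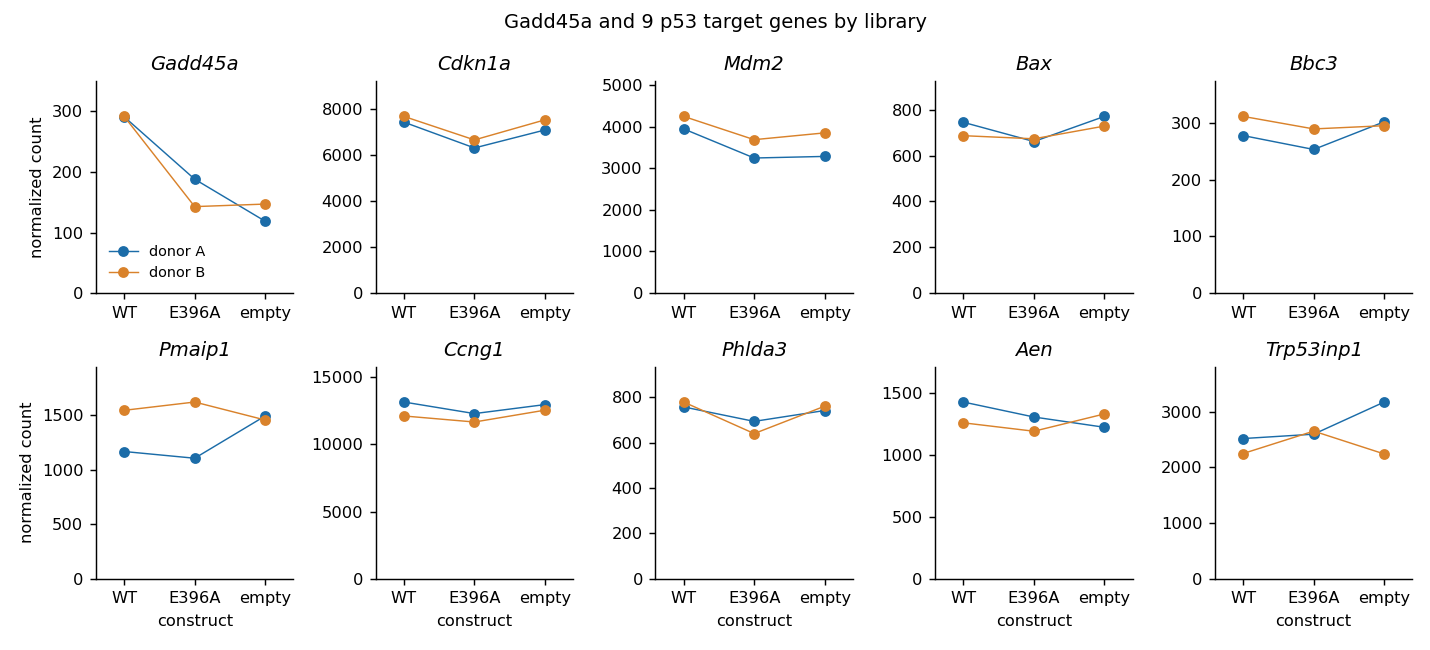
Normalized counts of each of the 10 members (vertical axes) in ADAR2 WT, ADAR2 E396A and empty-vector libraries (horizontal axes), with blue for donor A, orange for donor B and a line joining the libraries of a donor. Both ADAR2 WT points of Gadd45a, at 291.3 and 291.9, lie above its other 4 points.

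Set against empty vector, the ADAR2 WT level of Gadd45a was 1.14 ± 0.18 (SE) higher on the log2 scale, a 2.20-fold difference with a 95% interval of 0.73 to 1.54 in log2. It was 1.29 higher in donor A and 0.98 higher in donor B. By log2 fold change Gadd45a ranked 127 of the 14958 genes tested. In the authors' deposited table its log2 fold change was also 1.14, with a standard error of 0.28, after turning the sign so that positive means higher with ADAR2 WT. That table gave 1 of the 10 members, Gadd45a, an adjusted p under 0.05, against 1.75% of the genes with an adjusted p. It was computed from the same libraries and is not separate support. In a bulk culture, a different number of expressing cells and a different amount of RNA per cell cannot be told apart.

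The other 9 members lay close to 0 in the same comparison. Their log2 fold changes for ADAR2 WT over empty vector ran from -0.16 for Trp53inp1 to 0.20 for Mdm2. The median of the 10 members was 0.01, and that of all genes tested was 0. Of the 10, 5 were above 0, against 49.6% of genes. At a limma adjusted p under 0.05, 1 of the 10 members passed, Gadd45a, against 0.816% of all genes tested; that pass is the result by which the gene was chosen, so nothing is read from the count. At an unadjusted p under 0.05, 2 members passed, against 14.1% of genes. The ADAR2 WT libraries lay wholly above the empty-vector libraries for 2 members, Gadd45a and Mdm2, against 18.7% of genes, and wholly below for 0, against 18.5%. Gadd45a no longer passed when either ADAR2 WT library was left out (log2 fold change 1.16 without donor A, 1.11 without donor B), on leaving out the donor A library of empty vector (0.88), without the donor term (1.14), or when the variance was not allowed to depend on the expression level (1.14).

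**Figure D2:**
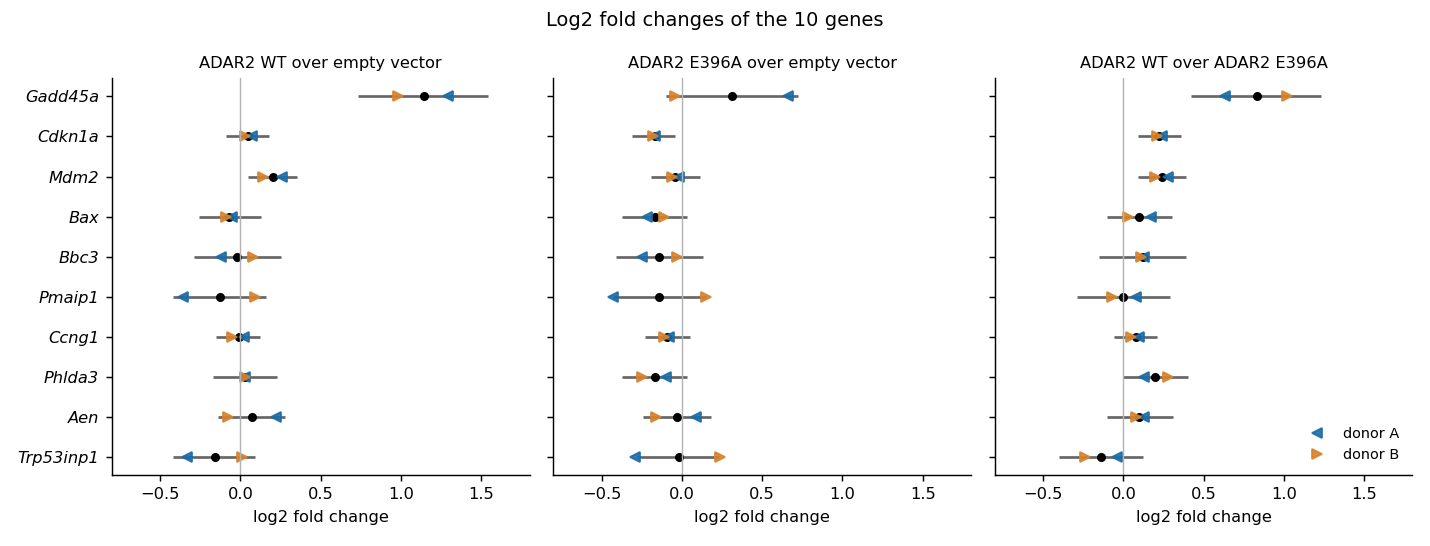
Log2 fold change of each member (horizontal axis) in the 3 comparisons, with black dots for the fitted value, gray bars for its 95% limma interval and triangles for the differences within each donor. Gadd45a is at 1.14 for ADAR2 WT over empty vector, 0.31 for ADAR2 E396A over empty vector and 0.83 for ADAR2 WT over ADAR2 E396A.

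**Figure D3:**
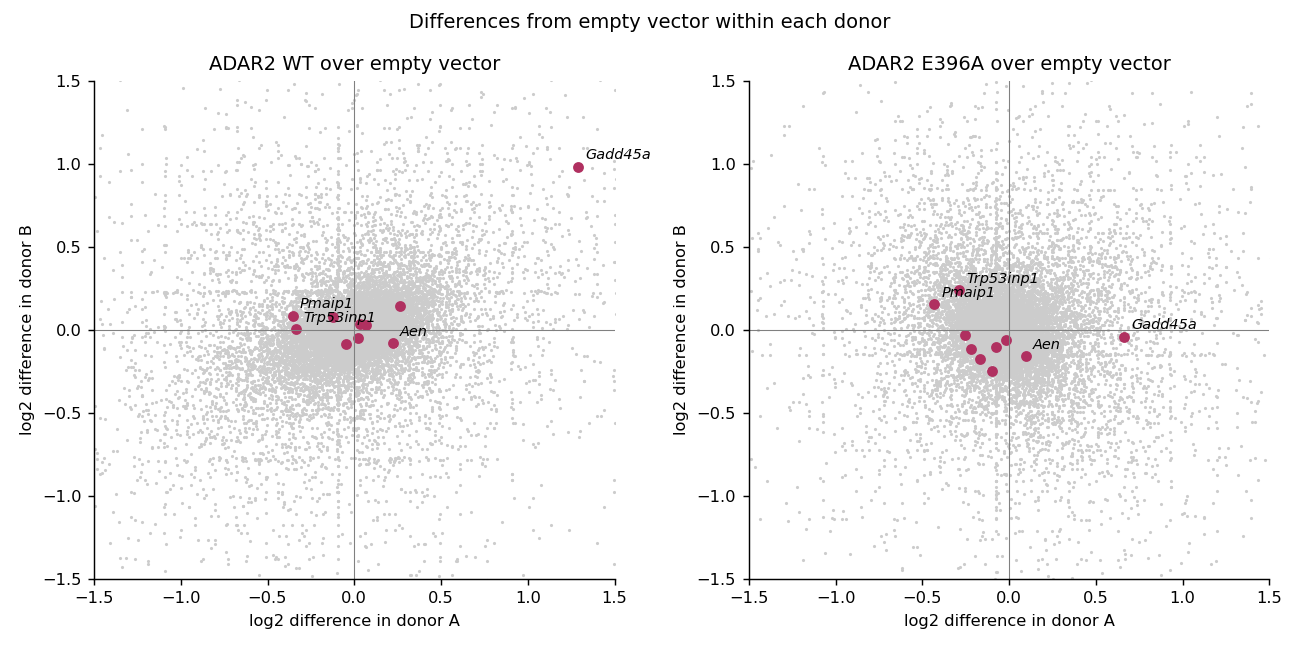
Log2 differences from empty vector in donor A (horizontal axis) and donor B (vertical axis), with the 14958 tested genes in gray, the members marked, and the axes limited to 1.5 on either side of 0. For ADAR2 WT, Gadd45a lies at 1.29 and 0.98, and for ADAR2 E396A at 0.66 and -0.04.

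Against empty vector, ADAR2 E396A gave a smaller difference for Gadd45a, and the donors did not share it. Gadd45a was 0.31 higher on the log2 scale (95% interval -0.10 to 0.72; limma adjusted p = 0.999), with 0.66 in donor A and -0.04 in donor B. None of the 10 members passed at a limma adjusted p under 0.05, where 0.0134% of all genes tested did. Cdkn1a alone had an unadjusted p under 0.05, against 3.89% of genes, and 0 members passed with edgeR or DESeq2, which called 3 and 7 of the 14958 genes tested. The authors' deposited table likewise gave none of the 10 an adjusted p under 0.05, against 0.00693% of its genes. This comparison shares its empty-vector libraries with the one by which Gadd45a was chosen.

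Most other members were slightly lower with ADAR2 E396A than with empty vector, by amounts that did not pass. The ADAR2 E396A libraries lay wholly below the empty-vector libraries for 5 members (Cdkn1a, Bax, Bbc3, Ccng1 and Phlda3), against 11.9% of genes, and wholly above for 0, against 11.5%. The fitted log2 fold change was above 0 for 1 member, Gadd45a, against 46.9% of genes. The members' median was -0.12, and that of all genes was -0.01. Cdkn1a, Bax and Phlda3 each had a log2 fold change of -0.17, with 95% intervals of -0.31 to -0.04 for Cdkn1a, -0.37 to 0.03 for Bax and -0.37 to 0.03 for Phlda3.

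The direct comparison of the active with the dead enzyme gave a Gadd45a difference of 0.83 on the log2 scale (95% interval 0.42 to 1.23), a 1.77-fold difference that did not pass adjustment over all genes (limma adjusted p = 0.154). It was 0.63 higher with ADAR2 WT in donor A and 1.02 higher in donor B. It passed when only the 4 libraries compared were fitted (limma adjusted p = 0.0446), and when the ADAR2 E396A library of donor A (limma adjusted p = 0.000318), the donor A library of empty vector (limma adjusted p = 0.0175) or that of donor B (limma adjusted p = 0.0234) was left out. Over 14 alternatives it passed in 4, with values from 0.55 to 1.10. The ADAR2 WT libraries of this comparison are those by which Gadd45a was chosen.

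No member passed at a limma adjusted p under 0.05 for ADAR2 WT against ADAR2 E396A, where 0.0669% of all genes tested did, and 0 passed with edgeR or DESeq2, which called 10 and 109 of the 14958 genes tested. At an unadjusted p under 0.05, 4 members (Gadd45a, Cdkn1a, Mdm2 and Phlda3) passed, against 12.4% of genes. The ADAR2 WT libraries lay wholly above the ADAR2 E396A libraries for 5 members (those 4 and Bax), against 19.4% of genes, and wholly below for 1, Trp53inp1, against 17.3%. The fitted log2 fold change was above 0 for 9 members, against 50.9% of genes. The members' median was 0.11, and that of all genes was 0. This comparison shares its ADAR2 E396A libraries with that of ADAR2 E396A over empty vector, so the counts of the 2 are not separate observations. On leaving out the donor A library of empty vector, Cdkn1a and Mdm2 passed as well (limma adjusted p = 0.0454 and 0.0485).

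Among the cell cycle and feedback genes, Cdkn1a had 7441.8 and 7692 normalized counts in ADAR2 WT cells of donors A and B, 6317.9 and 6668 in ADAR2 E396A cells, and 7101.4 and 7542.5 in empty-vector cells. The ADAR2 E396A libraries were the lowest of the 6, and ADAR2 WT overlapped empty vector. ADAR2 WT over ADAR2 E396A gave 0.22 in log2 (95% interval 0.09 to 0.36; limma adjusted p = 0.206), with 0.24 in donor A and 0.21 in donor B. Cdkn1a spans chr17:29090976-29100727, where AC167363.2 on the other strand had 752 reads. Mdm2 had 3943.7 and 4243.5 normalized counts in ADAR2 WT cells, 3244.2 and 3684.4 in ADAR2 E396A cells, and 3282.5 and 3847.7 in empty-vector cells. Its ADAR2 WT libraries were the highest of the 6, and the other groups overlapped. Mdm2 was 0.24 higher in log2 with ADAR2 WT than with ADAR2 E396A (95% interval 0.09 to 0.39; limma adjusted p = 0.206), and 0.20 ± 0.06 (SE) higher than with empty vector.

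Ccng1 had 13143.8 and 12107.4 normalized counts in ADAR2 WT cells of donors A and B, 12284 and 11657.3 in ADAR2 E396A cells, and 12953.1 and 12538.4 in empty-vector cells. ADAR2 WT overlapped both other groups. Its log2 fold change was -0.01 for ADAR2 WT over empty vector (95% interval -0.15 to 0.12). Phlda3, which encodes an inhibitor of AKT signalling, had 758.3 and 779.9 normalized counts in ADAR2 WT cells, 694.5 and 640.7 in ADAR2 E396A cells, and 742.5 and 761.6 in empty-vector cells. The ADAR2 E396A libraries were again the lowest, and ADAR2 WT over ADAR2 E396A gave 0.20 in log2 (95% interval 0.00 to 0.40; limma adjusted p = 0.392).

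The genes that promote cell death did not separate ADAR2 WT from empty vector. Bax, the pore-forming protein of the mitochondrial outer membrane, had 744.7 and 686.5 normalized counts in ADAR2 WT cells of donors A and B, 661 and 672.9 in ADAR2 E396A cells, and 770.6 and 728.4 in empty-vector cells. Bbc3, which encodes the BH3-only protein PUMA, had 277.7 and 311.5 normalized counts in ADAR2 WT cells, 253.2 and 289.4 in ADAR2 E396A cells, and 302 and 295.1 in empty-vector cells. The ADAR2 WT and empty-vector libraries overlapped for both genes, with log2 fold changes of -0.07 for Bax (95% interval -0.26 to 0.13) and -0.02 for Bbc3 (95% interval -0.29 to 0.25).

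Pmaip1, which encodes the BH3-only protein NOXA, had 1168 and 1546 normalized counts in ADAR2 WT cells of donors A and B, 1106.3 and 1622.1 in ADAR2 E396A cells, and 1494.4 and 1456.9 in empty-vector cells. The donors went opposite ways: ADAR2 WT over empty vector was -0.36 in donor A and 0.09 in donor B, and ADAR2 E396A over empty vector was -0.43 and 0.15. Aen, which encodes a nuclease that acts in apoptosis, had 1425.3 and 1257.6 normalized counts in ADAR2 WT cells, 1304.4 and 1189.8 in ADAR2 E396A cells, and 1221.6 and 1329.3 in empty-vector cells. All 3 groups of Aen overlapped. Trp53inp1, which encodes a p53-interacting nuclear protein, had 2517.5 and 2248.6 normalized counts in ADAR2 WT cells, 2595.9 and 2650.7 in ADAR2 E396A cells, and 3173.2 and 2240.8 in empty-vector cells. The empty-vector libraries of Trp53inp1 held both the highest and the lowest value. On leaving out the donor B library of empty vector, Pmaip1 (-0.39) and Trp53inp1 (-0.38) were lower with ADAR2 WT than with empty vector past the threshold.

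The 3 genes of the Gadd45 family, which encode related stress proteins, differed from each other. Gadd45b had 999 and 1426 normalized counts in ADAR2 WT cells of donors A and B, 601 and 783.6 in ADAR2 E396A cells, and 544.7 and 1205.6 in empty-vector cells. Gadd45g had 491.3 and 334.6 normalized counts in ADAR2 WT cells, 677.8 and 659 in ADAR2 E396A cells, and 829 and 523 in empty-vector cells. The log2 fold change of ADAR2 WT over empty vector was 0.56 ± 0.16 (SE) for Gadd45b (limma adjusted p = 0.181) and -0.70 ± 0.14 for Gadd45g (limma adjusted p = 0.0813), so neither passed. ADAR2 WT over ADAR2 E396A gave 0.80 for Gadd45b and -0.72 for Gadd45g (limma adjusted p = 0.130 for each). With DESeq2 Gadd45g passed in both of these comparisons, and Gadd45b in that against ADAR2 E396A.

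**Figure D4:**
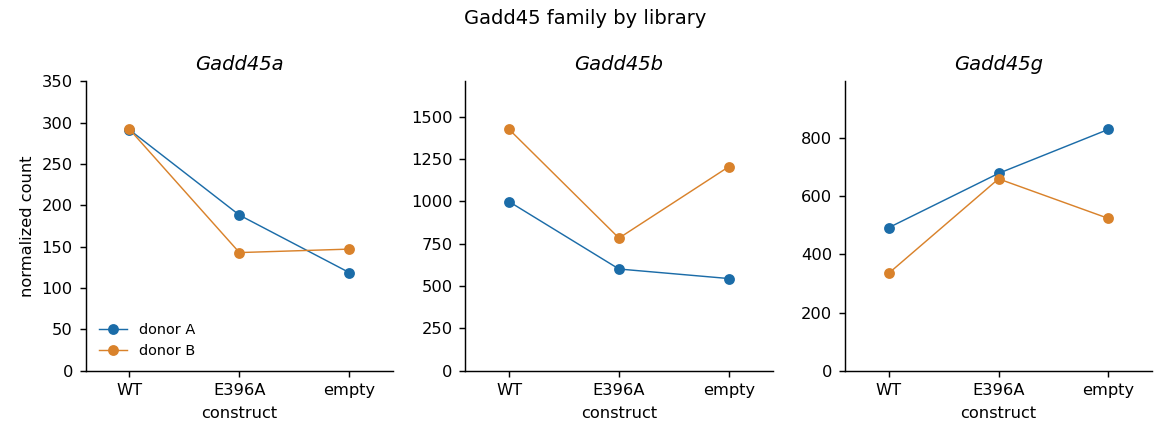
Normalized counts of Gadd45a, Gadd45b and Gadd45g (vertical axes) in ADAR2 WT, ADAR2 E396A and empty-vector libraries (horizontal axes), with blue for donor A, orange for donor B and lines joining a donor. Within each donor Gadd45b is higher and Gadd45g lower in ADAR2 WT than in empty vector.

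Trp53, which encodes p53 itself, had 1638.8 and 1700.6 normalized counts in ADAR2 WT cells of donors A and B, 1598.9 and 1630 in ADAR2 E396A cells, and 1614.2 and 1667.2 in empty-vector cells. Its log2 fold change was 0.03 for ADAR2 WT over empty vector (limma adjusted p = 0.903). Mdm4, the partner of Mdm2 that inhibits p53, was at -0.03 (limma adjusted p = 0.873). These are transcript levels and give no measure of p53 protein or activity.

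Beyond the 10 members, 37 of 38 other p53 target genes could be tested, Gdf15 being too low. For ADAR2 WT over empty vector 0 passed with limma or edgeR, 5 had an unadjusted limma p under 0.05, and 1, Plk2, passed with DESeq2. For this and the following lists, the share of all genes tested with such an unadjusted p in that comparison was 14.1%. Of the 14958 genes tested, limma called 122 there, edgeR 136 and DESeq2 216. The median log2 fold change of the 37 other targets was 0.01, beside 0 for all genes. Plk2, a polo-like kinase, had 1987.4 and 1926.7 normalized counts in ADAR2 WT cells, 1502.4 and 1206.3 in ADAR2 E396A cells, and 1244.5 and 1441.3 in empty-vector cells. Its log2 fold change was 0.55 ± 0.11 (SE) over empty vector (limma adjusted p = 0.0851), the highest of those averaging 50 or more normalized counts, and Sesn1 was lowest at -0.27. For ADAR2 E396A over empty vector the median was -0.06 with 11 of 37 above 0, against 46.9% of all genes. For ADAR2 WT over ADAR2 E396A it was 0.12 with 27 of 37 above 0, against 50.9% of all genes. These last comparisons share the ADAR2 E396A libraries and are not separate observations.

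Of the 14 genes for p53 and its regulators, 0 passed for ADAR2 WT over empty vector with limma or edgeR, 5 had an unadjusted limma p under 0.05, and 1, Prkdc, passed with DESeq2. Prkdc, the catalytic subunit of a DNA damage kinase, was at -0.45 (limma adjusted p = 0.0934). Chek1, a checkpoint kinase, was at 0.36 for ADAR2 WT (limma adjusted p = 0.226) and 0.44 for ADAR2 E396A (limma adjusted p = 0.999) over empty vector. Neither passed, and both values rest on the same empty-vector libraries. The 7 partner genes of the Gadd45 proteins had a median of 0.15, with 0 passing by limma, edgeR or DESeq2 and 2 at an unadjusted limma p under 0.05. The highest were Ccnb1, the mitotic cyclin B1, at 0.25 and Tdg, a DNA glycosylase, at 0.24.

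The ATF4 and CHOP stress branch, which can switch on Gadd45a without p53, had 9 tested genes. For ADAR2 WT over empty vector 8 of them were above 0, against 49.6% of all genes, and the median was 0.15. The donors did not share this for all 8. Atf4 (0.17 in donor A and -0.06 in donor B) and Trib3 (0.58 and -0.29) went opposite ways. So did Asns (0.24 and -0.05) and Nupr1 (0.65 and -0.17). Ddit3, Atf3, Ppp1r15a and Chac1 were higher in both donors. The part of this branch in the Gadd45a result was not tested. By limma, edgeR or DESeq2 0 passed, and 2 had an unadjusted limma p under 0.05, against 14.1% of all genes. Atf3, a stress-induced transcription factor, had 2661.2 and 3203.9 normalized counts in ADAR2 WT cells, 1876.7 and 1386.8 in ADAR2 E396A cells, and 1462.1 and 2331.4 in empty-vector cells. The ADAR2 WT libraries of Atf3 were the highest of the 6, with log2 fold changes of 0.66 over empty vector (limma adjusted p = 0.208) and 0.86 over ADAR2 E396A (limma adjusted p = 0.174). Ddit3, which encodes CHOP, was at 0.35 over empty vector (limma adjusted p = 0.185), and Atf4 was at 0.06 (limma adjusted p = 0.816).

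Of 5 other transcription factors known to act on Gadd45a, 0 passed for ADAR2 WT over empty vector by limma, edgeR or DESeq2, and 2 had an unadjusted limma p under 0.05. Their median was 0.02. In the BCL2 family, 11 of 12 genes were tested and 0 passed by limma, edgeR or DESeq2, with 2 at an unadjusted limma p under 0.05 and a median of -0.04. Bcl2l11, which encodes the BH3-only protein BIM, had 199 and 144.2 normalized counts in ADAR2 WT cells, 440.4 and 251 in ADAR2 E396A cells, and 481.1 and 174.3 in empty-vector cells. It was at -0.77 over empty vector (limma adjusted p = 0.157) and -0.97 over ADAR2 E396A (limma adjusted p = 0.156), where it passed with DESeq2. Of the CDK inhibitor genes beside Cdkn1a, 5 of 6 were tested and 0 passed by limma, edgeR or DESeq2, with 2 at an unadjusted limma p under 0.05.

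**Figure D5:**
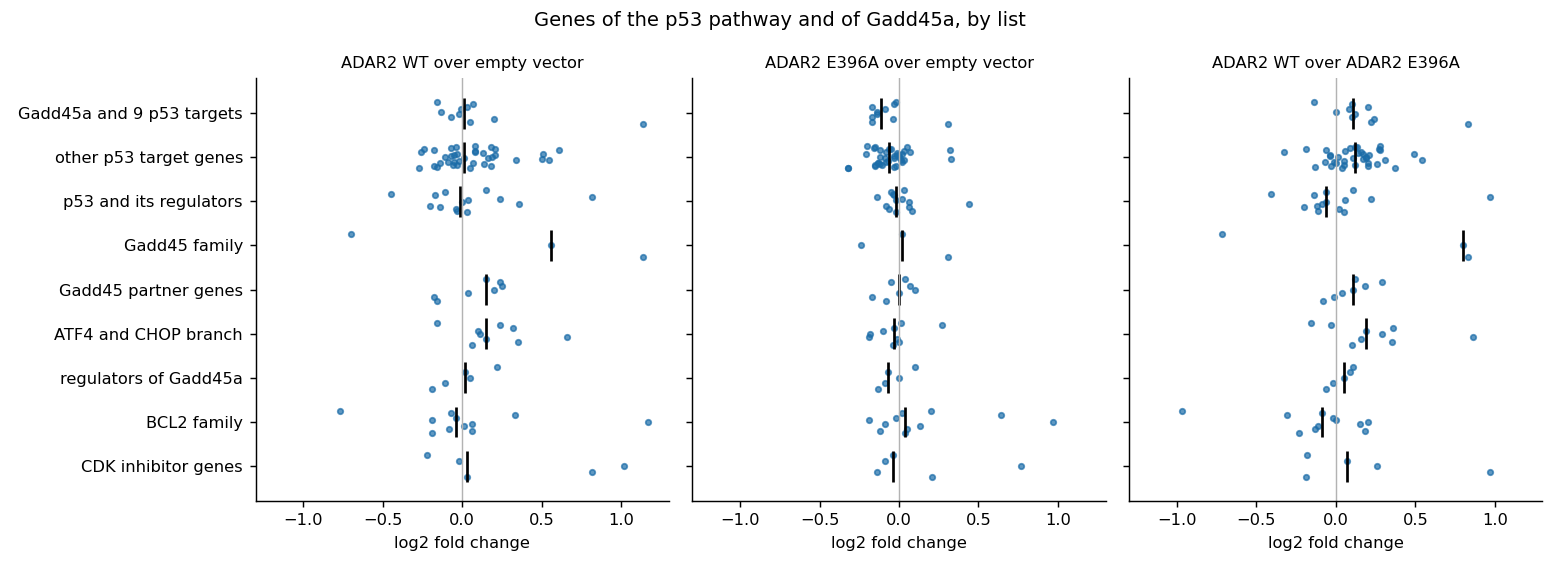
Log2 fold change of each tested gene (dots) in the members and the fixed gene lists, with a black bar for the median of a list. For ADAR2 WT over empty vector the medians are 0.01 for the members, 0.01 for the other p53 targets and 0.15 for the ATF4 and CHOP branch.

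Over all 89 tested genes of these lists beside the members, 0 passed with limma or edgeR for ADAR2 WT over empty vector. These called 122 and 136 of the 14958 genes tested. In that comparison 21 list genes had an unadjusted limma p under 0.05, against 14.1% of all genes. With DESeq2 3 list genes (Plk2, Prkdc and Gadd45g) passed, beside 216 of the 14958 genes tested. For ADAR2 E396A over empty vector 0 passed by limma, edgeR or DESeq2, and 5 had an unadjusted limma p under 0.05, against 3.89% of all genes. For ADAR2 WT over ADAR2 E396A 0 passed with limma or edgeR, and 21 had an unadjusted limma p under 0.05, against 12.4% of all genes. With DESeq2 4 (Plk2, Gadd45b, Gadd45g and Bcl2l11) passed. For both comparisons with ADAR2 E396A, the calls of each tool over all genes are given above beside the members.

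The genes whose pattern over the 6 libraries was most like that of Gadd45a were Armcx4 (0.11), mt-Nd2 (0.13), Spats2l (0.13), Isg15 (0.14) and Akr1c12 (0.14). The value is the root mean square difference in log2, after subtracting each donor's mean, among 10210 protein-coding genes averaging 50 or more normalized counts. Mdm2 was the closest other member at rank 956 with 0.41, and Trp53inp1 the most distant at rank 8900 with 0.61. Both lay far beyond the 0.11 to 0.14 of the genes named. The value is not scaled for how much a gene changes, so rank 956 is not read as likeness. Isg15, an interferon-stimulated gene, had 158.3 and 443 normalized counts in ADAR2 WT cells of donors A and B, 102.5 and 210.9 in ADAR2 E396A cells, and 67.7 and 165.6 in empty-vector cells. It resembled Gadd45a in its differences within a donor, although its levels differed more between the donors.

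Summed markers of CD8 T and NK cells (5 genes, 3 with enough reads to be tested) were 193.2 and 196.1 normalized counts in ADAR2 WT cells, 262.1 and 257.1 in ADAR2 E396A cells, and 332.2 and 286.3 in empty-vector cells. The lower sum in ADAR2 WT cells came from Klrd1, an NK cell receptor gene, with 18.4 and 34.6 normalized counts in ADAR2 WT cells, 104.4 and 109 in ADAR2 E396A cells, and 172.9 and 109.1 in empty-vector cells. Klrd1 had a log2 fold change of -2.39 for ADAR2 WT over empty vector (limma adjusted p = 0.0248). Cd8b1 was at 0.21 in that comparison (limma adjusted p = 0.590), and Cd8a differed in sign between the donors, with 0.75 in donor A and -1.68 in donor B, so the list did not move as one. The 5 stromal markers, none of which had enough reads to be tested, summed to 15.5 and 18.5 normalized counts in ADAR2 WT cells, 3.9 and 15.7 in ADAR2 E396A cells, and 7.3 and 9.7 in empty-vector cells. The part of either list in the Gadd45a result was not tested. Summed Th17 markers differed more between donors than between groups, with 24922.5 and 48547.1 in ADAR2 WT cells, 16994.1 and 64091.7 in ADAR2 E396A cells, and 20378.3 and 35514.6 in empty-vector cells of donors A and B.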

How the data were processed

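Per the submitters' processing notes, reads were processed on the mm10 build with STAR 2.6.1a, featureCounts and DESeq2 1.18.1. The parameters, strand setting and annotation were not given in the sources used here. For each construct the authors deposited 1 table of 55450 genes. Per the file headers, they hold normalized counts per library (a signal), a log2 fold change with its error, a Wald statistic (a score), a p-value and an adjusted p-value. The deposited log2 fold changes run empty vector over construct and were turned round here.

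Each deposited library column was whole reads divided by 1 factor. Undoing that division gave whole numbers, to 0.001 of a read, for every value, and those reads were used. Symbols, positions and exon lengths (for TPM) came from GENCODE vM21, in which all 55450 IDs were found. Where a symbol had 2 IDs, the row with more reads was used.

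Library columns carry no group or donor label. A library found in both tables was assigned to empty vector, and any other to the construct in the name of its table. The design text says that construct and empty-vector cells came from the same donors. The pairing was read from the deposited statistics: a DESeq2 refit differed from the deposited Wald statistics by at most 3.43e-12 over 28601 genes (ADAR2 WT) and 5.72e-05 over 28872 genes (ADAR2 E396A) when paired, by 13.8 and 6.08 when crossed, and by 6.67 and 2.03 with no donor term. No label tells which replicate number belongs to donor A.

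Since the deposited values were normalized, the test was limma 3.58.1 (R 4.3.3) on log2(normalized count + 1), with median-of-ratios factors, group and donor as terms, all 6 libraries, and Benjamini-Hochberg adjustment at 0.05 over the 14958 genes passing edgeR's filterByExpr. Fold changes on this scale understate those of low genes. The design fixed for the test did not say whether the variance should follow a trend with expression. The trend was adopted after the counts without it (no gene passing) had been seen, because it returned the counts of an earlier analysis of these data. Alternatives were edgeR 4.0.16, DESeq2 1.42.0, TMM factors, no filter, a pseudocount of 5, no donor term, only the 4 libraries compared, and leaving out each library in turn. The test was also run on simulated counts with known changes. Its outcome is not given here, so no support is drawn from it.

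The members and lists were chosen with earlier results of these data known. Genes named were the members, Adarb1, Trp53, Mdm4, the Gadd45 family, list genes that passed, the 2 highest and 2 lowest genes per list and comparison among those averaging 50 or more normalized counts, and the 5 genes most like Gadd45a. The text gives a selection of these. E230016M11Rik and AC167363.2 were named for their position, and the single cell type markers after their values were seen. Trib3 and Asns were named to give the signs of the donors in the ATF4 and CHOP branch. Upstream sequences are from RefSeq (GRCm38.p6), found for 8 of the 10 members.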

Additional observations from a re-analysis of the deposited data

How the results depend on the processing

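The number of genes passing depended strongly on the model. It is given for ADAR2 WT over empty vector, ADAR2 E396A over empty vector and ADAR2 WT over ADAR2 E396A in turn, and was 122, 2 and 10 as reported. Without the donor pairing (no replicate block) it was 2, 1 and 0. It was 216, 7 and 109 with DESeq2, 220, 5 and 102 with no filter on low values, and 1237, 1 and 194 with only the 4 libraries compared. With TMM factors in limma the last comparison gave 39. With no variance trend it was 0, 0 and 0; here the reported model is the later choice, since the trend was adopted after seeing the data and these counts. Without the trend 1556, 757 and 1359 genes had an unadjusted limma p under 0.05. Leaving out 1 library gave 1 to 1217, 1 to 127 and 0 to 844. The causes were not tested.

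Of the members, 1 passed for ADAR2 WT over empty vector as reported, 0 without the replicate block, 0 with no variance trend, and 0 to 3 with 1 library left out. For ADAR2 WT over ADAR2 E396A 0 passed as reported, 1 with only the 4 libraries compared, and 0 to 3 with 1 library left out. Gadd45a kept its direction in all 14 alternatives of each comparison, from 0.88 to 1.39, 0.04 to 0.59 and 0.55 to 1.10, and passed in 9, 0 and 4 of them. All alternatives refit the libraries by which Gadd45a was chosen, so nothing is concluded from its kept direction. Some, such as dropping the donor term or the variance trend, cannot change a fold change in this balanced design. Only Pmaip1 changed sign without a library left out, in ADAR2 WT over ADAR2 E396A, to -0.01 with edgeR, DESeq2 and limma with TMM factors.

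With 1 library left out, log2 fold changes of ADAR2 WT over empty vector crossed 0 for Bbc3 (-0.13 to 0.08), Aen (-0.07 to 0.21), Ccng1 (-0.04 to 0.01), Phlda3 (-0.01 to 0.07), Pmaip1 (-0.39 to 0.12) and Trp53inp1 (-0.38 to 0.05). Those of ADAR2 E396A over empty vector did for Pmaip1 (-0.39 to 0.12), Trp53inp1 (-0.24 to 0.19), Aen (-0.17 to 0.11) and Mdm2 (-0.08 to 0.01), and those of ADAR2 WT over ADAR2 E396A for Pmaip1 (-0.18 to 0.18) and Trp53inp1 (-0.32 to 0.04). With 2 libraries per group, a group reduced to 1 was assumed to vary like the others. Gadd45a, with 114 to 300 reads per library, is among the less deeply counted members.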
